A study of Rattus norvegicus with 7 samples.

Results

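Cortical opacity, a clouding of the outer fibre layers of the lens, was compared with clear lenses of the same strain of hereditary cataract rats, ICR/Ihr. The comparison used 4 of the 7 arrays of the study, 1 array per age. Per the labels, the lenses of 8 and 10 weeks had cortical opacity and those of 2 and 4 weeks had no cataracts, and they are called cortical and clear lenses here. All 7 arrays measured total RNA of ground lenses on the GeneChip Rat Gene 2.0 ST, a chip of short DNA probes, and per the methods the lenses came from males. All groups carried the hereditary cataract background, and the labels name no agent. No array of a strain without cataracts was analysed here, and every cortical lens was older than every clear lens, so that opacity and age cannot be told apart. The labels do not say whether the arrays came from separate animals, so p-values measure only the spread between these arrays. Of 18166 genes that could be named, 5168 were tested, those with a log2 value of 5 or more on any of the 7 arrays. Values are log2 RMA signals, in which 1 unit is a doubling. Differences are cortical minus clear, with n = 2 arrays per stage, and are given with the standard error (SE) of a fit on all 7 arrays. The SE also draws on the spread of the later lenses with nuclear opacity and on that of other genes. It can thus be wider or narrower than the spread of the 4 values shown.

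The lens is a single-layered epithelium over a mass of fibre cells. Epithelial cells at the equator stop dividing, elongate into fibres, fill with crystallins and then degrade their nuclei and organelles, so that the youngest fibres form the cortex and the oldest the nucleus. The tissue has no blood vessels and takes up amino acids, sugar and water through membrane transporters. Cortical cataract begins in fibres near the equator, where calcium entry, proteolysis by calpains and swelling have been described in rodents.

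Markers of the lens were bright on all 4 arrays. Cryab, a small heat shock protein of the alpha-crystallin family, was at 13.28 and 13.22 in cortical lenses and at 13.17 and 13.22 in clear lenses. Mip, the water channel of fibres, was at 12.66 and 12.47 in cortical lenses and at 12.80 and 12.47 in clear lenses, and the epithelial factor Foxe3 was at 6.46 and 6.58 against 6.76 and 6.58. Lim2, Bfsp1, Gja3, Pax6 and Cdh1 were also above 5 on each array, while Cryaa, Crybb2 and Bfsp2 were not analysed here. Between 4214 and 4397 genes reached a log2 value of 5 in cortical lenses and between 4443 and 4595 in clear lenses. The median size of the difference between the 2 cortical arrays over tested genes was 0.151, close to the 0.156 between the 8-week-old cortical and the 4-week-old clear lens, and it was 0.208 between the 10- and 2-week-old lenses. In such ground tissue, fewer cells of a type and less RNA per cell cannot be told apart.

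More genes had lower than higher values in the cortical lenses, but no single gene passed the test. Of the 5168 genes, 0 had an adjusted p under 0.05 in limma (0%), and the smallest adjusted p was 0.113. An unadjusted p under 0.05 was found for 162 genes with higher values (3.13%) and for 666 with lower values (12.9%), where chance would give 258.4 in all. With arrays centred on their medians these counts were 382 higher and 427 lower, and after quantile normalization 286 and 497. Without the filter on dim genes they were 600 higher and 909 lower. The higher share of these genes was then 39.8%, against 19.6% with the filter, and the median difference was 1.7e-05. The excess of lower genes thus depended in part on the filter and the scaling. Over all tested genes the difference had a median of -0.07 as deposited and 0.04 after centring, so that small negative differences lie within this shift of scale. With a trended and robust prior 12 genes passed, and the same 12 passed when a value of 6 was required. Of these, 3 were higher (Ass1, Thrsp and Serpinb6a) and 9 were lower (Gca, Pnkd, Metap1, Nhsl1, Flrt2, Ccnd2, Abca2, Mfap2 and Satb1).

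Some genes kept a clear distance between the stages on the individual arrays. The lowest cortical value lay at least 0.5 above the highest clear value for 35 genes (0.677%), and the highest cortical value lay at least 0.5 below the lowest clear value for 139 genes (2.69%). Such genes are called separated below, which is a description and not a test. These 2 shares are the background for the counts of separated genes in each list. After median centring 48 genes were separated above and 99 below. At the limit, Kif5a (a gap of 0.50) was just inside and Comtd1 (0.497) just outside among higher genes, as were Rfx3 (-0.50) and Tcf7l2 (-0.498) among lower genes. The shift lay mostly between 4 and 8 weeks. This was the largest of the 3 steps in age for 30 of the 35 higher genes (85.7%) and for 114 of the 139 lower genes (82.0%), whereas it was so for 53.2% of all genes with a positive difference and 45.1% of those with a negative one. A gap between the stages requires a step there, so the shares of separated genes are set by the way they were chosen. In 21 of the 35 higher genes and 96 of the 139 lower genes the 4 values were also in order of age. Of the separated genes, 24 higher and 37 lower ones also stand on lists that the study selected on 4-, 8- and 10-week-old lenses of this strain, a contrast that overlaps with this one but has no 2-week-old lens, so their direction is not independent evidence.

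**Figure D1:**
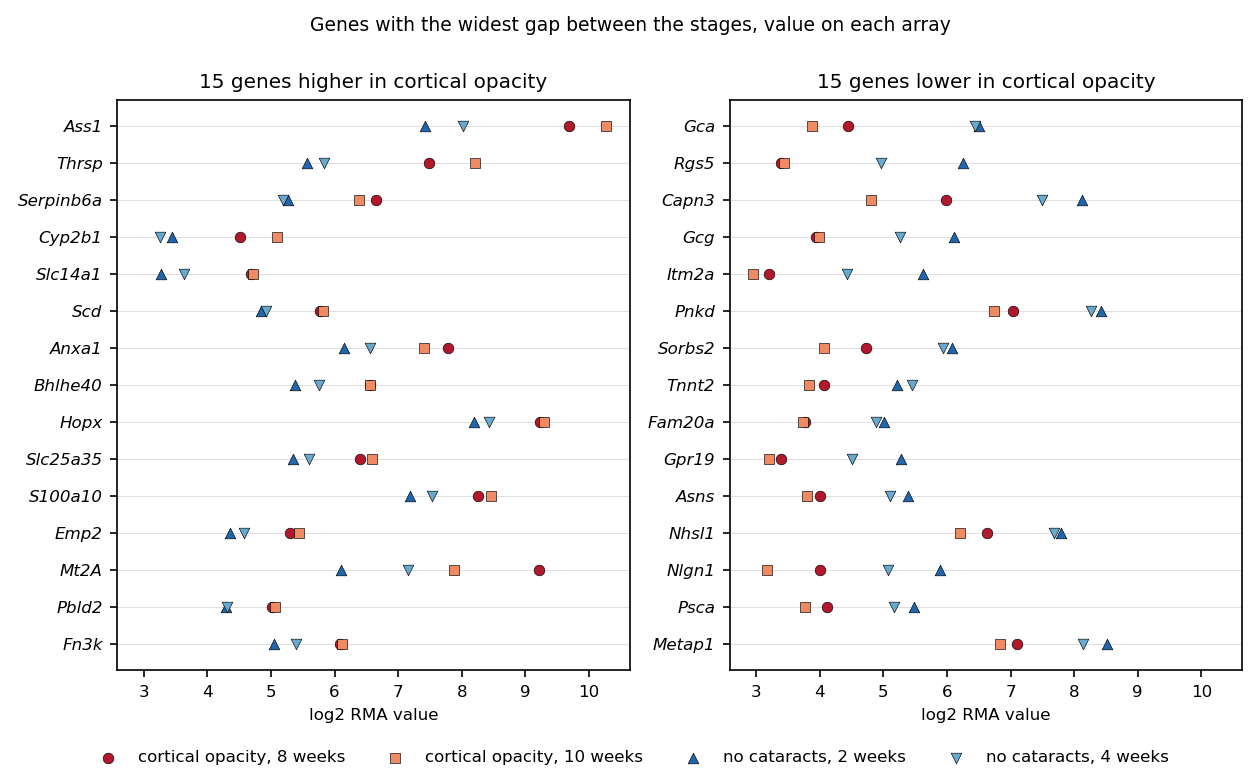
Log2 RMA value (horizontal axis) of the 15 genes with the widest gap above and the 15 with the widest gap below the clear lenses, with 1 symbol for each array (circles and squares for the 8- and 10-week-old cortical lenses, triangles for the 2- and 4-week-old clear lenses). No cortical symbol overlaps the range of the clear ones, and the gaps run up to 1.65 for Ass1 and Thrsp and to -1.99 for Gca.

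The widest gap among higher genes was that of Ass1, which joins citrulline and aspartate on the way to arginine. Ass1 was at 9.68 and 10.27 in cortical lenses and at 7.42 and 8.02 in clear lenses, a difference of 2.25 ± 0.28 (adjusted p = 0.113). The 4 values followed age, and the step from 4 to 8 weeks was the largest (1.65 for Ass1). Slc14a1, a urea transporter, was at 4.69 and 4.72 in cortical lenses and at 3.26 and 3.63 in clear lenses (1.26 ± 0.43). Slc14a1 was thus below 5 on all 4 arrays, and it passed the filter only through the 12- and 18-week-old lenses (5.18 and 6.06). Ass1 and Slc14a1 are members of a list of 12 tested genes of arginine and polyamine metabolism, of which they alone were separated, and the median of the list was -0.0037. Slc7a1, which carries arginine into cells, was at 3.74 and 4.45 in cortical lenses and at 5.63 and 4.58 in clear lenses (-1.01 ± 0.40). Odc1, which makes the first polyamine, overlapped between the stages, with 6.55 and 6.39 in cortical lenses and 6.13 and 6.52 in clear lenses.

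Genes of fatty acid synthesis held the next widest gap. Thrsp, a nuclear protein that promotes lipid synthesis, was at 7.49 and 8.21 in cortical lenses and at 5.57 and 5.84 in clear lenses (2.14 ± 0.27). Srebf1, the transcription factor that drives fatty acid synthesis genes, was at 7.54 and 8.42 in cortical lenses, against 6.68 and 6.95 in clear lenses (1.16 ± 0.29). Of the 4 lenses compared, that of 10 weeks had the highest value of both genes. Scd, a desaturase that makes oleate and palmitoleate, was at 5.78 and 5.82 in cortical lenses and at 4.84 and 4.92 in clear lenses (0.92 ± 0.14), and its paralogue Scd2 was at 11.20 and 11.26 against 10.95 and 10.98 (0.27 ± 0.10). Pnpla3, a lipid droplet enzyme, was 0.51 ± 0.15 higher, without overlap between the stages. Probes of such close relatives can bind each other's transcripts, so the values of Scd and Scd2 are uncertain, as are those of Cyp2b1 and Serpinb6a.

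Other members of the list had small or negative differences. Acly and Acaca, which make the building blocks, were near the median of all genes with -0.03 and -0.07, a shift within that of the scaling, which turns Acaca to 0.04 after median centring, and the elongases Elovl5 and Elovl6 of -0.29 and -0.23. Lpin1, a phosphatidate phosphatase of triglyceride synthesis, was at 8.70 and 8.50 in cortical lenses and at 9.29 and 9.20 in clear lenses (-0.64 ± 0.12). Over the 16 tested members, 3 were separated above and 0 below, 5 had an unadjusted p under 0.05 with higher and 1 with lower values, and the median was 0.11 against -0.07 over all tested genes. Over all tested genes 3.13% had such a p with higher and 12.9% with lower values. The count of 5 became 2 with the 2-week-old lens left out and 3 with the 10-week-old lens left out, where 2 members had lower values. The median became -0.0022 with the 10-week-old lens left out and -0.05 when dim genes were kept. Of these members, 5 stand on the lists selected on this strain.

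Cholesterol synthesis, the other arm of lipid synthesis, had no separated gene and 0 members with higher values at an unadjusted p under 0.05, against 5 of 13 with lower values. Over all tested genes 3.13% had such a p with higher and 12.9% with lower values. The count of 5 was 3 after median centring and also 3 after quantile normalization. The median of the list was -0.24. With the 2-week-old lens left out it was -0.08, and 2 members then had an unadjusted p under 0.05. Idi1, an isomerase of isoprenoid units, was at 5.81 and 5.33 in cortical lenses and at 6.53 and 6.21 in clear lenses (-0.80 ± 0.22). Fdft1, which makes squalene, was at 6.58 and 6.40 against 6.91 and 6.86 (-0.39 ± 0.10). Srebf2, the transcription factor of the pathway, was at 5.79 and 6.04 in cortical lenses and at 6.36 and 6.25 in clear lenses (-0.39 ± 0.12), and its escort protein Scap differed by -0.45 ± 0.09. The pair of regulators thus stood on opposite sides, Srebf1 above and Srebf2 below their values in clear lenses. Of the 14 fatty acid breakdown genes, 2 were separated, and both belong to the carnitine shuttle that brings fatty acids into mitochondria. Cpt1a was at 5.14 and 4.51 in cortical lenses and at 6.34 and 5.80 in clear lenses (-1.24 ± 0.27). Cpt2 was at 7.71 and 6.85 in cortical lenses and at 8.66 and 8.34 in clear lenses (-1.22 ± 0.32). The median of that list was -0.16, and 0.05 with the 10-week-old lens left out.

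**Figure D2:**
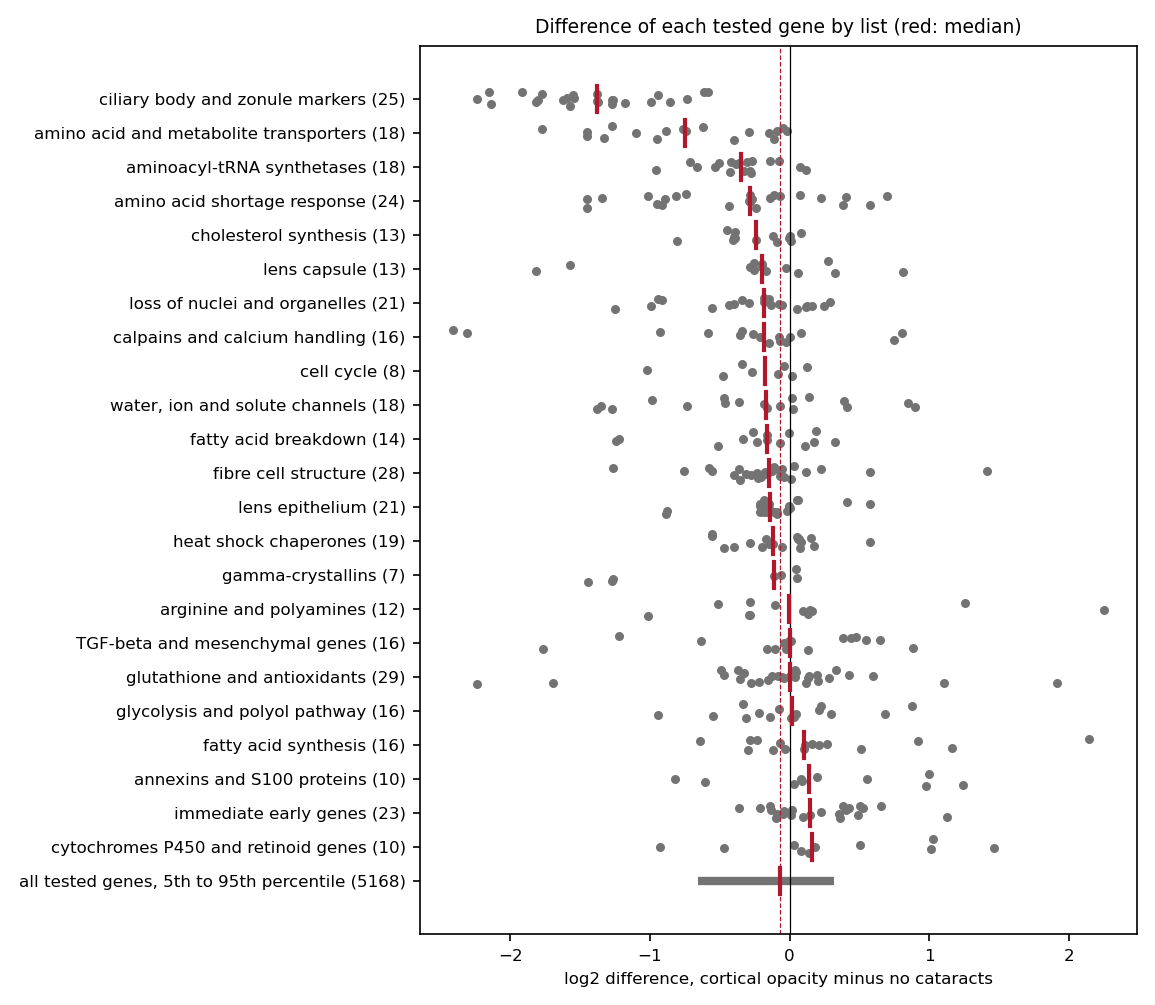
Log2 difference, cortical opacity minus no cataracts (horizontal axis), of each tested gene by list, with 1 grey point per gene, a red bar at the median of the list and the number of genes in brackets. The grey bar at the bottom spans the middle of the range of all 5168 tested genes. The ciliary body and zonule markers (median -1.38) and the transporters (-0.75) lie farthest to the left, and the dashed line marks the median of all tested genes (-0.07).

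Annexins and their S100 partners, which bind calcium and membranes, were split. Anxa1 was at 7.79 and 7.40 in cortical lenses and at 6.14 and 6.56 in clear lenses (1.24 ± 0.20). S100a10, the partner of annexin A2, was at 8.26 and 8.46 against 7.19 and 7.53 (0.996 ± 0.16), while Anxa2 itself differed by 0.03 ± 0.14. Anxa8 was at 7.34 and 7.89 in cortical lenses and at 6.60 and 6.69 in clear lenses (0.98 ± 0.24). Lower values were those of Anxa6 (6.94 and 6.72 in cortical, 7.61 and 7.25 in clear lenses) and S100a11 (8.67 and 8.61 in cortical, 9.83 and 9.08 in clear lenses). In all, 3 of the 10 tested members were separated above and 0 below, and the median was 0.14.

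The other higher genes with the widest gaps were of varied function. Serpinb6a, an inhibitor of serine proteases, was at 6.65 and 6.39 in cortical lenses and at 5.27 and 5.18 in clear lenses (1.29 ± 0.12). Mt2A, a metallothionein that binds zinc and copper, was at 9.21 and 7.87 in cortical lenses and at 6.10 and 7.16 in clear lenses (1.91 ± 0.64), the widest spread within a stage among these genes. Hopx, a small homeodomain protein, was at 9.22 and 9.29 against 8.19 and 8.43 (0.95 ± 0.15). Bhlhe40, a repressor that responds to light, hypoxia and hormones, was at 6.56 and 6.55 in cortical lenses and at 5.38 and 5.75 in clear lenses (0.99 ± 0.34). Emp2, a membrane protein of epithelia, was 0.90 ± 0.13 higher. Fn3k, which removes sugar from glycated lysines, was at 6.08 and 6.11 in cortical lenses and at 5.04 and 5.40 in clear lenses (0.88 ± 0.17), and Sord, the sorbitol dehydrogenase of the polyol pathway, was at 5.34 and 5.13 against 4.43 and 4.69 (0.68 ± 0.13). Slc25a35, a mitochondrial carrier, and Pbld2 differed by 1.01 ± 0.21 and 0.73 ± 0.31.

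Among cytochromes P450, Cyp2b1, which oxidises drugs and steroids, was at 4.51 and 5.10 in cortical lenses and at 3.44 and 3.25 in clear lenses (1.46 ± 0.21). Cyp26a1, which degrades retinoic acid, was at 5.31 and 5.79 in cortical lenses and at 4.70 and 4.35 in clear lenses (1.03 ± 0.26), and Cyp2u1 was at 5.52 and 6.62 against 5.07 and 5.05 (1.01 ± 0.35). All of these were higher at 10 than at 8 weeks. Aldh1a1, which makes retinoic acid, was at 6.41 and 5.04 in cortical lenses and at 7.13 and 6.17 in clear lenses, with overlap between the stages. Of the 10 tested members of that list, 2 were separated above and 0 below (median 0.16), and 3 stand on the lists selected on this strain.

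The gene with the widest gap below the clear lenses, and another among the 3 widest, belong to calcium binding and calcium-dependent proteolysis. Gca, grancalcin, an EF-hand calcium-binding protein, was at 4.45 and 3.88 in cortical lenses and at 6.50 and 6.44 in clear lenses, a difference of -2.31 ± 0.26 (adjusted p = 0.113). The clear arrays lay closer together than the cortical ones. Capn3, the calpain with lens splice forms in rodents, was at 5.99 and 4.80 in cortical lenses and at 8.12 and 7.49 in clear lenses (-2.41 ± 0.57). Among these 4 lenses the value of Capn3 was lower at each later age. Pvalb, parvalbumin, a calcium buffer, was at 7.21 and 6.78 in cortical lenses and at 7.95 and 7.89 in clear lenses (-0.93 ± 0.26). The ubiquitous calpain Capn2 differed by -0.26 ± 0.09 and its inhibitor calpastatin, Cast, by 0.00 ± 0.14. Higher values were those of Capn6, a calpain without the catalytic cysteine, at 5.03 and 5.21 in cortical lenses and at 4.46 and 4.28 in clear lenses (0.75 ± 0.12), and of Trpm1, a cation channel, at 7.45 and 7.72 against 6.42 and 7.15. Over all tested genes 0.677% were separated above and 2.69% below. An unadjusted p under 0.05 was found for 3.13% with higher and 12.9% with lower values. Of the 16 tested genes of this list, 1 was separated above and 3 below, 2 had an unadjusted p under 0.05 with higher and 7 with lower values, and these counts were 1 and 1 with the 2-week-old lens left out, 2 and 4 with the 4-week-old lens left out or after median centring, and 1 and 3 with the 10-week-old lens left out.

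Several genes of nuclear and organelle loss were lowest at 10 weeks among the 4 lenses. Dnase2b, the nuclease that degrades fibre cell DNA, was at 8.28 and 7.01 in cortical lenses and at 8.56 and 8.61 in clear lenses (-0.94 ± 0.52). The 8-week-old lens was thus near the clear lenses and the 10-week-old lens was not. Trex1, a DNA exonuclease, was also lowest at 10 weeks among the 4 lenses but already lower at 8 weeks, with 7.03 and 5.86 in cortical lenses and 7.86 and 7.53 in clear lenses (-1.25 ± 0.41). Ube2o, a ubiquitin-conjugating enzyme known from the clearance of proteins in maturing red cells, was at 7.52 and 7.06 against 8.17 and 8.23 (-0.91 ± 0.17) and was the only separated gene among the 21 of this list. Fbxo7, a ubiquitin ligase subunit, was at 6.12 and 5.43 in cortical lenses and at 6.95 and 6.58 in clear lenses (-0.99 ± 0.25). Plaat3, a phospholipase that dissolves organelle membranes in fibres, differed by -0.06 ± 0.13. Of the 21 tested members, 4 stand on the list of lower genes selected on this strain, so their direction is not independent evidence. Of all tested genes, 12.9% had an unadjusted p under 0.05 with lower values. Over the list, 6 genes had an unadjusted p under 0.05 with lower and 0 with higher values (3 lower with the 2-week-old lens left out), and the median was -0.18.

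**Figure D3:**
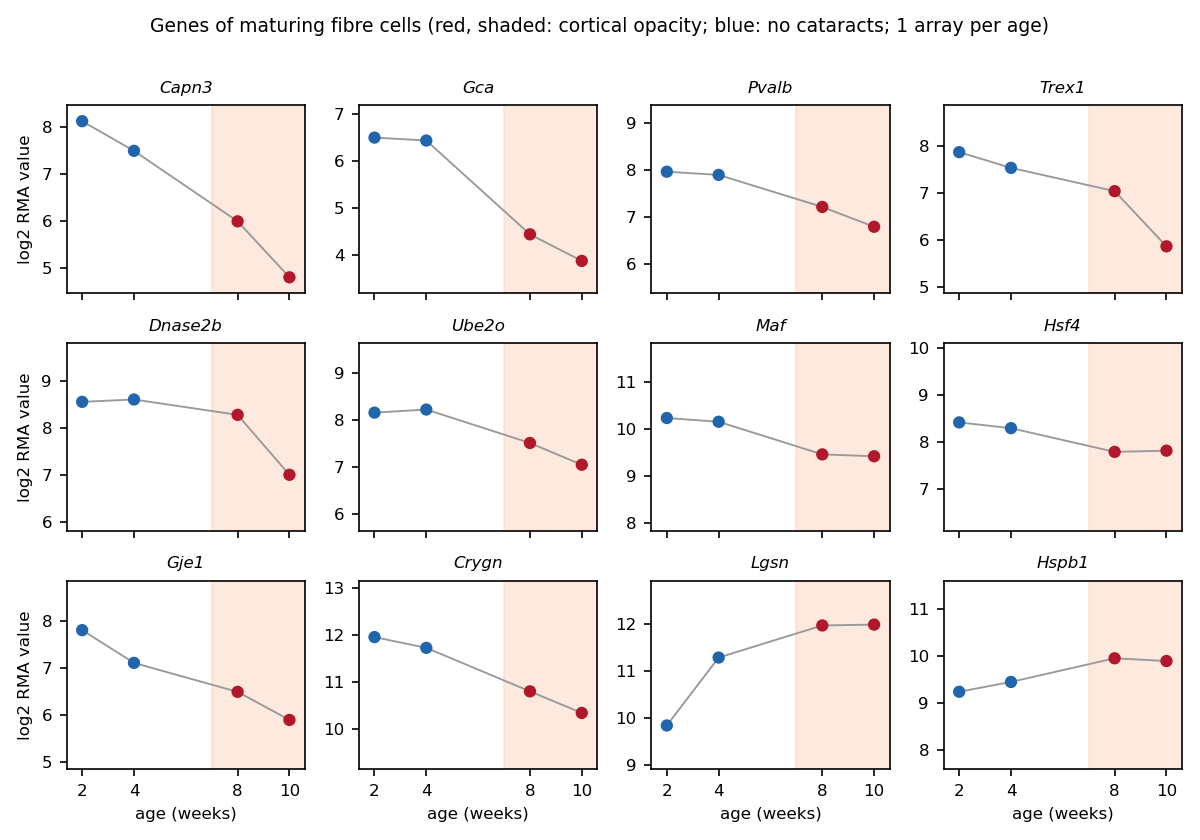
Log2 RMA value (vertical axes, each spanning 4 units) against the age of the lens in weeks for 12 genes of fibre cells, with 1 point per array (red and shaded, cortical opacity; blue, no cataracts). Maf, Hsf4 and Lgsn hardly differ between 8 and 10 weeks, whereas Capn3, Trex1 and Dnase2b are lower at 10 than at 8 weeks.

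The transcription factors and RNA-binding proteins of fibre differentiation named here had lower values, from -0.23 ± 0.11 for Prox1 to -0.75 ± 0.12 for Maf. Maf, which activates crystallin genes, was separated below, at 9.46 and 9.42 in cortical lenses and at 10.24 and 10.16 in clear lenses (a gap of -0.69). Hsf4, the heat shock factor of fibres, was at 7.78 and 7.81 in cortical lenses, against 8.41 and 8.29 in clear lenses (-0.55 ± 0.14). The arrays of a stage lay close together in both genes. Rbm24 differed by -0.58 ± 0.11, Tdrd7, mutated in human childhood cataract, differed by -0.39 ± 0.12, and Prox1 by -0.23 ± 0.11. Gje1, a connexin-like gap junction protein of fibres, was at 6.49 and 5.89 in cortical lenses and at 7.80 and 7.10 in clear lenses (-1.26 ± 0.30). Structural genes of fibres such as Bfsp1 (-0.20 ± 0.09), Lim2 (-0.13 ± 0.14), Mip (-0.07 ± 0.16) and Vim (0.01 ± 0.13) had small differences with an unadjusted p above 0.05. Of the 28 tested fibre genes, 1 was separated above and 2 below, with a median of -0.14 (-0.04 after median centring). The gene separated above was Lgsn, lengsin, a glutamine synthetase-like protein of the lens. Lgsn was at 11.96 and 11.98 in cortical lenses and at 9.83 and 11.28 in clear lenses (1.41 ± 0.45), and most of this difference lay between 2 and 4 weeks. Hspb1, a small heat shock protein, was at 9.95 and 9.89 in cortical lenses and at 9.24 and 9.45 in clear lenses (0.58 ± 0.17).

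Among the crystallins, which make up most of the protein of a fibre, Crygn alone was separated. Crygn was at 10.81 and 10.35 in cortical lenses and at 11.96 and 11.73 in clear lenses (-1.27 ± 0.19). Cryge and Crygf are near-identical genes whose probes may not tell them apart. Cryge was at 10.52 and 9.45 in cortical lenses and at 11.01 and 11.48 in clear lenses (-1.26 ± 1.25). Crygf was at 10.91 and 9.18 in cortical lenses and at 11.26 and 11.71 in clear lenses (-1.44 ± 1.31). Neither gene differed by more than 2 standard errors of the fit on all 7 arrays, although the values of the stages did not overlap. Crygb, Crygc, Crygd and Crygs lay between -0.11 and 0.05, as did Cryba1, Cryba2 and Cryab, whose signals may be compressed near the top of the scale. Of the 7 tested gamma-crystallins, 1 had an unadjusted p under 0.05, also when any 1 of the 4 arrays was left out.

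Genes that supply amino acids for protein synthesis mostly had lower values in cortical lenses. Asns, which makes asparagine, was at 4.01 and 3.79 in cortical lenses and at 5.38 and 5.11 in clear lenses (-1.34 ± 0.14, adjusted p = 0.113). Slc7a5 and Slc3a2 are the subunits of one exchanger of large neutral amino acids and both were separated. Slc7a5 was at 8.07 and 8.02 in cortical lenses and at 9.12 and 8.86 in clear lenses (-0.95 ± 0.12). Slc3a2 was at 7.71 and 7.52 in cortical lenses and at 8.46 and 8.25 in clear lenses (-0.74 ± 0.12). Slc38a3, a glutamine transporter, was at 7.60 and 7.57 against 8.57 and 8.38 (-0.89 ± 0.14). These transporters differed little between 8 and 10 weeks. Slc6a9, a glycine transporter, was at 5.40 and 5.0 in cortical lenses and at 7.38 and 5.91 in clear lenses (-1.45 ± 0.47), and Slc7a11, which imports cystine for glutathione, was at 3.97 and 3.47 against 5.91 and 4.42 (-1.45 ± 0.50), both with their largest step between 2 and 4 weeks. Slc2a1, the glucose transporter GLUT1, was at 8.64 and 8.65 in cortical lenses and at 9.39 and 9.12 in clear lenses (-0.62 ± 0.12).

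All 18 tested transporters of amino acids and metabolites had negative differences, with a median of -0.75, against 3288 of 5168 genes overall. Some, such as Slc7a11 and Slc16a6, reached a log2 value of 5 only in the 2-week-old lens, so the filter on dim genes favoured lower values. Without that filter 23 of 26 transporters were negative, with a median of -0.50. After median centring 14 of the 18 were negative and after quantile normalization 17, and with 1 lens left out 15 (2-week-old), 16 (4- or 8-week-old) or 18 (10-week-old). Of them, 6 were separated below and 0 above, and 11 had an unadjusted p under 0.05. Over all tested genes 2.69% were separated below and 12.9% had such a p with lower values. Among the 18 transporters, 5 stand on the list of lower genes selected on this strain, so their direction is not independent evidence. The count of 11 was 5 when the 10-week-old lens was left out, 7 when the 8-week-old lens was, and 5 in a fit on the 4 arrays alone. Slc6a13 and Slc13a4 are also on the list of ciliary body markers, and without this pair the median of the other 16 was -0.68, with 5 separated. Slc6a6, the taurine transporter, differed by -0.02 ± 0.16.

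The enzymes that load amino acids onto tRNA had lower values as well, by smaller amounts. Of 18 tested aminoacyl-tRNA synthetases of the cytosol, 16 had negative differences, 2 were separated below and 9 had an unadjusted p under 0.05 with lower values, and the median was -0.35. With the 2-week-old lens left out, 2 had such a p and the median was -0.24; with the 8-week-old lens left out 5 had one. The count of 9 was 5 after median centring and 6 after quantile normalization. Of all 5168 tested genes, 3288 had negative differences, 2.69% were separated below and 12.9% had an unadjusted p under 0.05 with lower values. Iars1, for isoleucine, was at 6.53 and 6.58 in cortical lenses and at 7.82 and 7.20 in clear lenses (-0.96 ± 0.23). Wars1, for tryptophan, was at 5.65 and 5.79 in cortical lenses and at 6.39 and 6.37 in clear lenses (-0.66 ± 0.18). Aars1, for alanine, was at 5.52 and 5.04 in cortical lenses and at 6.13 and 5.86 in clear lenses (-0.72 ± 0.19). Gars1, for glycine, was at 8.55 and 8.61 against 9.02 and 8.97 (-0.42 ± 0.10). The exceptions were Kars1 (0.08 ± 0.13) and Hars1 (0.12 ± 0.10), for lysine and histidine.

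**Figure D4:**
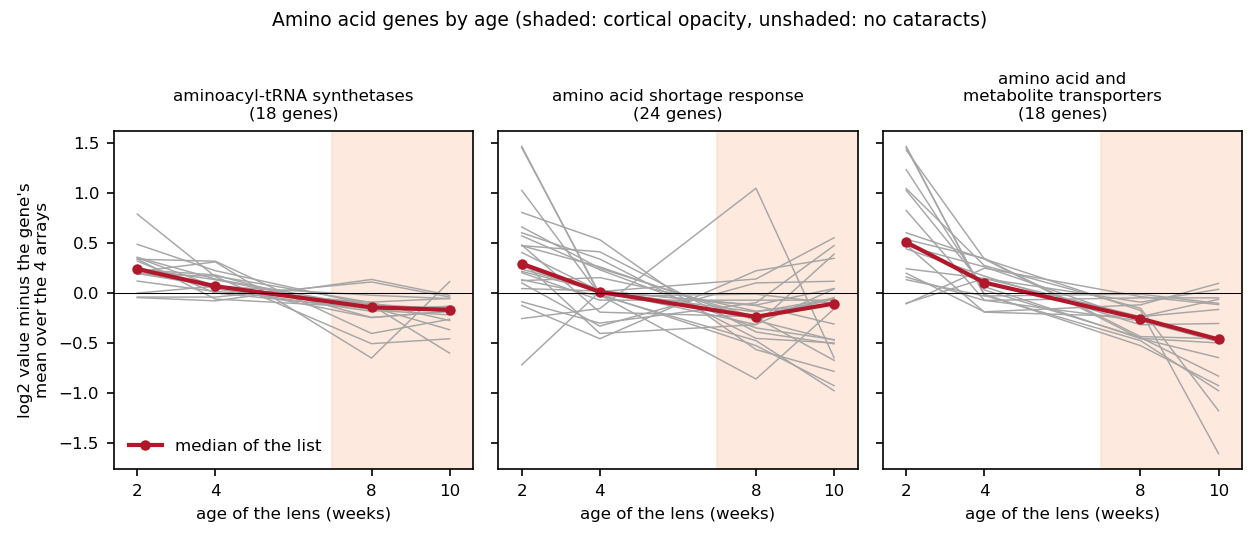
Log2 value minus the mean of the gene over the 4 arrays (vertical axis) against the age of the lens in weeks, with 1 grey line per gene and the median of each list in red (shaded, cortical opacity; unshaded, no cataracts). The medians of the 18 synthetases and the 18 transporters are lower at 8 and 10 weeks than at 2 and 4 weeks, while members of the amino acid shortage response, with 24 genes, run in both directions.

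Many genes of amino acid supply are targets of the transcription factor ATF4, which acts when amino acids are short and binds a C/EBP-ATF element with the core TGATGNAA. Of 24 tested genes of this shortage response, 6 were separated below and 0 above, 11 had an unadjusted p under 0.05 with lower and 2 with higher values, and the median was -0.28. The count of 11 became 4 when any 1 of the 2-, 8- or 10-week-old lenses was left out, and the median was -0.16 with the 2-week-old lens left out. Over all tested genes 12.9% had such a p with lower and 3.13% with higher values. Among the 24 members, 4 stand on the list of lower and 1 on that of higher genes selected on this strain. Their direction is thus not independent evidence. Without the filter on dim genes 24 of 37 members had negative differences. Their median was then -0.18, against 1.7e-05 over all genes without the filter. Besides Asns and the transporters, Mthfd2, a mitochondrial folate enzyme, was at 5.76 and 5.65 in cortical lenses and at 6.63 and 6.57 in clear lenses (-0.89 ± 0.31). Atf4 itself was at 9.03 and 9.10 in cortical lenses and at 9.34 and 9.37 in clear lenses (-0.28 ± 0.11). The members did not move as 1 group. Ddit3, a stress-induced inhibitor of C/EBP factors, was at 5.44 and 5.85 in cortical lenses and at 4.58 and 5.31 in clear lenses (0.70 ± 0.27). Ddit4, an inhibitor of mTOR signalling, was at 5.32 and 5.45 in cortical lenses and at 4.98 and 4.64 in clear lenses (0.57 ± 0.14).

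The element was searched in the promoters of these genes because it is a known feature of the pathway. RefSeq sequences (build GRCr8) from 250 bases before to 50 bases after the gene start were read on both strands for TGATGNAA, which reads TTNCATCA on the other strand. Of 17 synthetase genes with a promoter sequence, 7 held a match (41.2%), as did 7 of 32 genes of the shortage response (21.9%) and 1 of 20 transporters (5%). Among all genes with a promoter sequence 1141 of 27457 held one (4.16%), and among tested genes 84 of 4346 (1.93%). A match is a description of letters and neither a binding site nor a cause of these values. The stretches below are the 60 bases around the match in promoters of 4 synthetases and of the arginine transporter Slc7a1, all upstream of the gene start, in the direction of the gene and with the match in capitals. They lie at chr19:55908344-55908403 (Aars1, plus strand), chr17:15193653-15193712 (Iars1, minus strand), chr7:65023754-65023813 (Mars1, minus strand), chr2:62114803-62114862 (Tars1, minus strand) and chr12:11664428-11664487 (Slc7a1, plus strand).
Aars1: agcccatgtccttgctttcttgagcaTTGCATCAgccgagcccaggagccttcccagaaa
Iars1: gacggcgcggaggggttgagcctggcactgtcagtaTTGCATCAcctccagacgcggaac
Mars1: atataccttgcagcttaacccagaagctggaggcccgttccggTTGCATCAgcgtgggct
Tars1: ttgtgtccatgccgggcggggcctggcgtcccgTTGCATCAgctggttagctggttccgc
Slc7a1: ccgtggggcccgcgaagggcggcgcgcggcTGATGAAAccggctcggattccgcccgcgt
The matches shown for the 4 synthetases have the same 8 letters, and that of Slc7a1 is on the strand of the gene. Aars1 holds another match, TTTCATCA, 10 bases after the gene start, which is not shown. The differences of these genes ran from -0.14 ± 0.09 for Tars1 and -0.38 ± 0.10 for Mars1 to -0.96 ± 0.23 for Iars1 and -1.01 ± 0.40 for Slc7a1, so a match went with no single size of difference. Wars1 and Gars1 had lower values too and are not among the genes with a match in this window.

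The other lower genes with the widest gaps came from several cell functions. Pnkd, named for a movement disorder in humans, was at 7.03 and 6.74 in cortical lenses and at 8.43 and 8.26 in clear lenses (-1.45 ± 0.15). Metap1, which removes the first methionine of new proteins, was at 7.10 and 6.84 in cortical lenses and at 8.52 and 8.14 in clear lenses (-1.36 ± 0.17). Nhsl1, a relative of the gene mutated in Nance-Horan syndrome with congenital cataract, was at 6.62 and 6.20 against 7.79 and 7.69 (-1.33 ± 0.16). In these genes the gap between the stages was wider than the distance between arrays of a stage. Sorbs2, an adaptor of the actin cytoskeleton, was at 4.73 and 4.06 in cortical lenses and at 6.09 and 5.94 in clear lenses (-1.62 ± 0.24), and Tnnt2, cardiac troponin T, was at 4.06 and 3.83 against 5.22 and 5.45 (-1.39 ± 0.29). Fam20a, Gpr19, Psca, Itm2a and Gcg, the precursor of glucagon, were near the bottom of the scale in cortical lenses (2.95 to 4.11), where a hybridization signal includes background and differences are understated. Their differences ran from -1.20 ± 0.18 for Fam20a to -1.95 ± 0.47 for Itm2a.

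Markers of neighbouring eye tissue moved with the comparison. All 25 tested markers of the ciliary body and zonule, the ring that holds the lens and its fibrils, had lower values in cortical lenses, with a median of -1.38. Of them, 13 were separated below and 0 above and 17 had an unadjusted p under 0.05 with lower values (2.69%, 0.677% and 12.9% over all tested genes). As 22 of them stand on the lists selected on this strain, their direction is not independent evidence. Some, such as Zic2 and Vcan, reached a log2 value of 5 only in the 2-week-old lens, so the filter on dim genes favoured lower values. Without that filter 28 of 30 named markers had negative differences, with a median of -1.32. Optc, opticin of the vitreous, was at 6.74 and 4.87 in cortical lenses and at 8.49 and 7.43 in clear lenses (-2.15 ± 0.66). Fbn1, fibrillin of the zonule, was at 6.01 and 3.82 in cortical lenses and at 7.26 and 6.41 in clear lenses (-1.92 ± 0.73). The 2-week-old lens had the highest value for 24 of the 25 markers and the 10-week-old lens the lowest for 25, and 22 markers were lower at each step in age. Their summed linear signal was 1042 and 521 in cortical lenses and 2979 and 1414 in clear lenses. The median step was -1.09 between 2 and 4 weeks, -0.51 between 4 and 8 weeks and -0.69 between 8 and 10 weeks. With the 2-week-old lens left out the median was -0.88, and with the 4-week-old lens left out it was -2.03. The count of 17 became 2 when the 10-week-old lens was left out and 8 when the 2-week-old lens was, and it was 6 in a fit on the 4 arrays alone. Mfap2, a microfibril protein, had another profile, with 5.77 and 5.69 in cortical lenses and 6.71 and 6.73 in clear lenses (-0.99 ± 0.10).

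**Figure D5:**
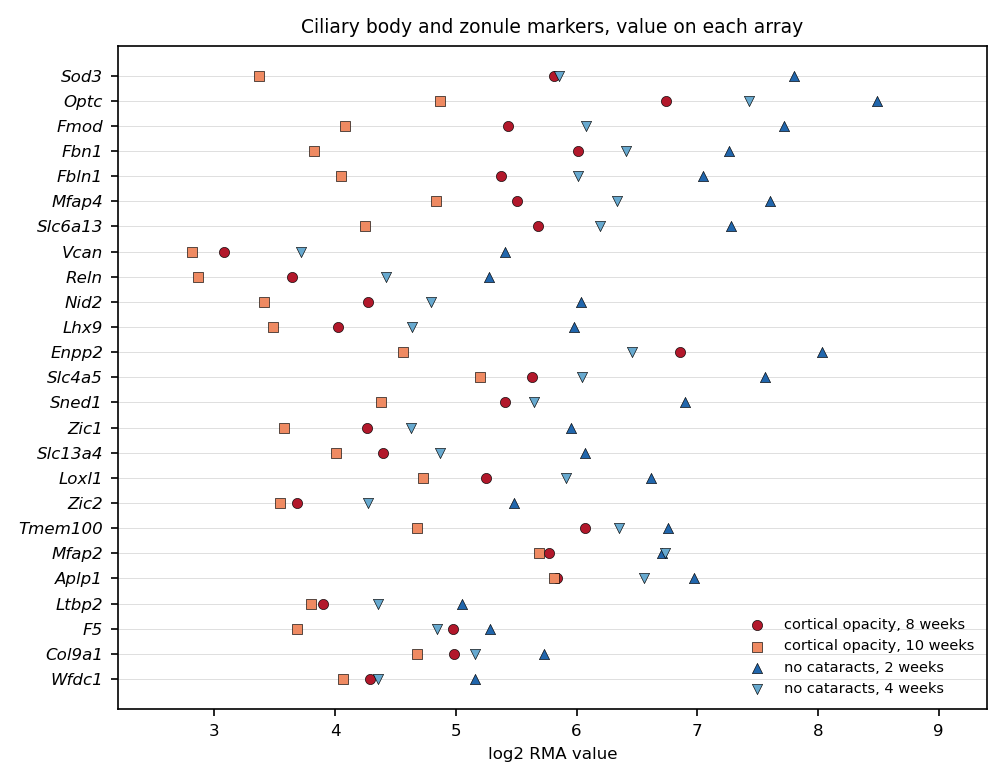
Log2 RMA value (horizontal axis) of 25 markers of the ciliary body and zonule, with 1 symbol for each array (circles and squares for the 8- and 10-week-old cortical lenses, triangles for the 2- and 4-week-old clear lenses). The 2-week-old lens has the highest value for 24 and the 10-week-old lens the lowest for 25 markers, and the 4- and 8-week-old lenses mostly lie between them.

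Other marker lists were dim or mixed. Of 13 named pigment cell markers, 4 were tested, and the pigment enzymes Tyrp1 and Dct stood out on 1 array. Tyrp1 was at 3.69 and 2.82 in cortical lenses and at 7.62 and 4.06 in clear lenses, and Dct at 2.84 and 2.95 against 5.58 and 3.16. The summed signal of the 4 tested markers, which include Mitf and Trpm1, was 266 and 285 in cortical lenses and 434 and 261 in clear lenses. Trpm1, the brightest of them in cortical lenses, was at 7.45 and 7.72 there and at 6.42 and 7.15 in clear lenses. It was the 1 tested marker with a positive difference, against 3 with a negative one. Neuron and glia markers had 5 tested members with sums of 323 and 239 in cortical lenses and 504 and 417 in clear lenses. Most of these sums came from Cbln2, at 7.66 and 6.92 in cortical lenses and at 8.27 and 7.93 in clear lenses. Of the 5, Nlgn1 and Rbfox3 were separated below, and 2 members stand on the lists selected on this strain. Over all 17 named members only 8 had negative differences, with a median of 0.0027. Nlgn1, a synaptic adhesion protein, was at 4.01 and 3.17 in cortical lenses and at 5.90 and 5.07 in clear lenses (-1.90 ± 0.40). Rgs5, a regulator of G protein signalling known as a marker of pericytes, was at 3.40 and 3.44 in cortical lenses and at 6.25 and 4.97 in clear lenses (-2.19 ± 0.41). None of the 15 retina, 19 immune, 7 blood and 11 endothelium markers reached a log2 value of 5 on any of the 4 arrays (highest values of 4.08, 3.99, 4.23 and 4.06). The part of adhering tissue in the lower values of this comparison was not tested.

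The lens capsule, a basement membrane, was mostly even. Col4a1, Col4a2 and Col4a5, its collagens, differed by -0.17 ± 0.13, -0.20 ± 0.10 and -0.03 ± 0.09. Fbln1 and Nid2 were separated below among the 13 tested members, and both are also ciliary markers. Ntn4, a netrin that is built into laminin networks, was separated above with 4.92 and 5.01 in cortical lenses and 4.01 and 4.30 in clear lenses (0.81 ± 0.15). Of 21 tested genes of the lens epithelium, only Slc38a3 was separated, and Pax6, Foxe3, Pitx3 and Cdh1 differed by -0.14 to -0.21.

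Genes of mesenchymal change did not share a direction. Col1a2, of collagen I, was at 5.40 and 5.54 in cortical lenses and at 4.56 and 5.08 in clear lenses (0.65 ± 0.20), and Cd44, a hyaluronan receptor, at 5.70 and 5.81 against 4.95 and 5.47 (0.55 ± 0.19). Chrdl1, an inhibitor of bone morphogenetic proteins, was separated above with 5.99 and 6.43 in cortical lenses and 5.39 and 5.26 in clear lenses (0.88 ± 0.16). Bmp4, a ligand that such inhibitors bind, was at 4.23 and 3.46 in cortical lenses and at 6.56 and 4.66 in clear lenses (-1.76 ± 0.64), and Tgfb2, the main isoform of the eye, at 6.68 and 6.40 against 7.27 and 7.08 (-0.63 ± 0.16). Other ligands lay on the other side, with Tgfb3 at 4.31 and 4.33 in cortical lenses and at 3.81 and 3.88 in clear lenses (0.48 ± 0.19) and a difference of 0.13 ± 0.20 for Tgfb1. The median of 16 tested genes was 0.0031.

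Water and ion channels were also split. Aqp5, a water channel of the lens, was at 5.61 and 6.55 in cortical lenses and at 4.93 and 5.43 in clear lenses (0.90 ± 0.34), and Aqp1, the water channel of the epithelium, at 6.42 and 6.65 against 6.40 and 5.84 (0.41 ± 0.20). Cpm, a membrane carboxypeptidase on that list, was at 7.26 and 7.72 in cortical lenses and at 6.42 and 6.86 in clear lenses (0.85 ± 0.22). Fxyd6, a regulator of the sodium pump, was the only separated member of 18 and was lower, with 6.30 and 5.49 in cortical lenses and 7.16 and 7.17 in clear lenses (-1.27 ± 0.33). The median was -0.17, with an unadjusted p under 0.05 for 3 higher and 5 lower members (3.13% and 12.9% over all tested genes). These counts became 1 and 0 with the 10-week-old lens left out, 1 and 1 with the 2-week-old lens left out, and 2 and 2 with the 8-week-old lens left out.

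Antioxidant genes were even as a list, with 1 member separated in each direction among 29 and a median of 0.01. Hmox1, heme oxygenase, was at 7.65 and 6.64 in cortical lenses and at 9.06 and 8.61 in clear lenses (-1.69 ± 0.36), and Mt2A was the member above. The largest difference of the list was that of Sod3, which is also on the ciliary list and was not separated. Sod3 was at 5.82 and 3.37 in cortical lenses and at 7.80 and 5.86 in clear lenses (-2.23). Gclc and Gclm, the subunits of the enzyme that limits glutathione synthesis, differed by 0.42 ± 0.19 and -0.27 ± 0.16. Among 19 chaperones none was separated. Hspd1, of mitochondria, and Dnajb1 had lower values (-0.56 ± 0.19 and -0.40 ± 0.10), while Hspa8 and Hsp90ab1 differed by 0.15 ± 0.11 and 0.07 ± 0.10. Ccnd2, a cyclin of dividing cells, was at 5.78 and 5.73 in cortical lenses and at 6.86 and 6.67 in clear lenses (-1.02 ± 0.11) and was the separated member of 8 tested cell cycle genes.

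Immediate early genes, which respond to stimuli within minutes, set the cortical arrays apart from each other. Fos was at 8.25 and 6.42 in cortical lenses and at 6.19 and 7.18 in clear lenses. Zfp36, which destabilises messenger RNA, was at 6.52 and 4.87 in cortical lenses and at 5.40 and 5.0 in clear lenses. No member of 23 was separated and the median difference of 0.15 was 0.45 with the 10-week-old lens left out and -0.19 with the 8-week-old lens left out. Of these members, 10 stand on the list of lower genes selected on this strain. The median step was 0.41 between 4 and 8 weeks and -0.67 between 8 and 10 weeks.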

How the data were processed

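The authors hybridised lens RNA to GeneChip Rat Gene 2.0 ST arrays and normalized it with the Robust Multi-array Average algorithm (RMA) in R, and the deposited log2 values of 36685 transcript clusters were used as given. The replicate arrays and the Sprague Dawley rats of the study were not analysed here. Of the clusters, 18511 carried 1 gene symbol, updated through Entrez identifiers with RefSeq (18394 updated, 117 kept), and the cluster with the highest mean stood for a gene. Exactly equal values on 2 or more of the 4 arrays occurred in 1291 of 5168 tested genes, a property of the deposited values that narrows some spreads.

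Stages were compared with limma 3.58.1 in R 4.3.3 (a mean for each stage, fitted on all 7 arrays with 3 residual degrees of freedom that moderation raised to 5.37, two-sided, Benjamini-Hochberg adjustment over 5168 genes). An exact permutation test of 2 against 2 arrays cannot go below p = 0.333. The text names the 15 genes with the widest gap in each direction, up to 6 members with the largest differences per direction of each of 32 lists, and markers. Other members are named for contrast, and Flrt2, Abca2, Satb1, Kif5a, Comtd1, Rfx3 and Tcf7l2 for their place at a limit, after their values were seen. Members and lists were chosen with earlier results of these data known. The steps were tested on simulated data, and figures were drawn with matplotlib 3.10.9. The number of arrays limits the precision.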

Additional observations from a re-analysis of the deposited data

Results flagged for a closer look

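Clusters without a single gene symbol were outside the comparison of genes. Of these, 3004 reached a log2 value of 5, and 50 were separated above and 76 below the clear lenses by 0.5 or more, with 7 separated above by 1 or more. The widest gap was that of cluster 17826243, with 3.81 and 4.62 in cortical lenses and 2.23 and 1.59 in clear lenses (a gap of 1.58). Cluster 17837539 was at 8.07 and 8.03 in cortical lenses and at 5.18 and 6.60 in clear lenses (a gap of 1.43). Neither carries a gene symbol in the table of the array. Among 50 such clusters these were chosen as the 2 with the widest gaps, so they stand for a signal in data left out of the comparison and not for a test.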

How the results depend on the processing

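Other processing choices changed how many genes were counted, and none of the 30 genes with the widest gaps had the opposite sign in a setting that kept it (21 of the 30 were kept with a floor of 6, 16 with a mean of 5 or more, and all 30 otherwise). With a floor of 6, or with a trended and robust prior, 12 genes passed the adjusted p (3 higher, 9 lower), and 3 passed after median centring (Gca, Pnkd and Serpinb6a, 1 higher and 2 lower), while 0 passed with the other settings. Genes with an unadjusted p under 0.05 and higher values numbered 600 without a filter on dim genes, 286 after quantile normalization and 382 after median centring. Lower ones numbered 909 without a filter and 427 after median centring. Leaving out 1 array gave 96 (without the 2-week-old lens) to 191 higher and 374 (without the 2-week-old lens) to 730 lower genes, with 413 lower without the 10-week-old lens. The separated genes numbered 82 higher without a filter, 126 higher and 476 lower at a gap of 0.25, and 5 and 15 at a gap of 1. Leaving out 1 array gave 58 (2-week-old), 111 (4-week-old), 85 (8-week-old) and 80 (10-week-old) higher genes, and 182 to 438 lower genes (425 and 438 without the 4- and 8-week-old lens), since a gap over 3 arrays is easier to reach. The lone array of a stage was then assumed to vary like the others. The cause of the other shifts was not tested. No paired analysis was possible because the labels give each age 1 array and no replicate numbers. Signals near the bottom of the scale understate differences, and those near the top may be compressed.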
